A study of Mus musculus with 9 samples.

Results

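Guanylate-binding proteins (GBPs) are large GTPases, and the mouse genes that encode them carry the symbol Gbp with a number. Every probe set of the deposited array table whose platform symbols were all Gbp symbols was taken, which gave 10 of 24922 probe sets. Of these, 8 carried exactly 1 symbol: Gbp2b, Gbp3, Gbp4, Gbp5, Gbp7, Gbp8, Gbp9 and Gbp11. The other 2 carried several. One listed Gbp2 and Gbp2b, and the other listed 6 genes, Gbp4, Gbp6, Gbp8, Gbp9, Gbp10 and Gbp11. The mouse RefSeq table (assembly GRCm38.p6) holds 11 Gbp genes, 5 on chromosome 3 and 6 on chromosome 5. Gbp2, Gbp6 and Gbp10 had no probe set of their own, so no level is given for any of them alone. RefSeq lists Gbp11 as a transcribed pseudogene. The choice used symbols only and no filter on intensity was applied, so all 10 probe sets were tested. The shared probe sets name genes that also have a probe set of their own, so the 10 are not independent measurements.

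The arrays measured RNA of peritoneal macrophages of C57BL/6 mice, all male and aged 6 weeks. Mice had received a subcutaneous injection of 10000 U of recombinant IFNa (interferon alpha, type I; 4 arrays) or 8000 U of recombinant IFNg (interferon gamma, type II; 2 arrays) and were killed 2 h later, and 3 arrays came from untreated mice. Cells were sorted by FACS on the macrophage marker F4/80 and on ICAM, per the series text; the labels of the treated arrays read F4/80+ ICAM2+, and those of the untreated arrays read F4/80+ alone. No injected control group was analysed here, the doses of the interferons differ, and the labels do not say whether each array is 1 mouse, so p-values measure the spread between these samples.

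GBPs are among the proteins that macrophages make in quantity after interferon. They assemble on the vacuoles of intracellular pathogens and on bacteria in the cytosol, help to break them open, and so expose their contents to inflammasomes, the complexes that activate inflammatory caspases. The GAS element of promoters is known from genes that respond to IFNg. The interferon-stimulated response element (ISRE) is known from genes that respond to IFNa, and IRF1 binds it too.

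The promoter windows of the chromosome 3 genes are shown because both elements are known from Gbp promoters. They are the 250 bases before the RefSeq start (GRCm38.p6, plus strand): chr3:142496684-142496933 for Gbp5, chr3:142530086-142530335 for Gbp7, chr3:142559794-142560043 for Gbp3, chr3:142594597-142594846 for Gbp2b and chr3:142620413-142620662 for Gbp2. Capitals mark matches, on either strand, to an ISRE-like motif (GAAA, any 2 bases, GAAA) or a GAS-like motif (TTC, any 3 bases, GAA).
Gbp5: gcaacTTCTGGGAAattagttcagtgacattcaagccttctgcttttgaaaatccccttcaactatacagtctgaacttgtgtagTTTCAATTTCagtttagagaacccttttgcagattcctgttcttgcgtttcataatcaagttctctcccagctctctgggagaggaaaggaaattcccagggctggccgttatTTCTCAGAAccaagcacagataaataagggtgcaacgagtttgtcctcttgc
Gbp7: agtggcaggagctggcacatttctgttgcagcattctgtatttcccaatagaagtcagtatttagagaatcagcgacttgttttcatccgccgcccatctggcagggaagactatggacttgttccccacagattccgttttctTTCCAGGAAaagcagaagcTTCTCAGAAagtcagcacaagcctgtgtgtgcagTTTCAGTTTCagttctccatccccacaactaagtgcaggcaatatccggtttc
Gbp3: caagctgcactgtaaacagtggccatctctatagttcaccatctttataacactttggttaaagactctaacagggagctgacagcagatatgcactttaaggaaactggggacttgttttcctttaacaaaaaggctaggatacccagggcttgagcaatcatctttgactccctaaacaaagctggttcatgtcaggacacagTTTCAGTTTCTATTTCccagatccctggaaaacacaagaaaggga
Gbp2b: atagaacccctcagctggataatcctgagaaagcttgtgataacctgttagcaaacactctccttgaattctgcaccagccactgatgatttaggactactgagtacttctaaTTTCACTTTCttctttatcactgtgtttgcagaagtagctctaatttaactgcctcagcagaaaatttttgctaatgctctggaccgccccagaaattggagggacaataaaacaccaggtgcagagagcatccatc
Gbp2: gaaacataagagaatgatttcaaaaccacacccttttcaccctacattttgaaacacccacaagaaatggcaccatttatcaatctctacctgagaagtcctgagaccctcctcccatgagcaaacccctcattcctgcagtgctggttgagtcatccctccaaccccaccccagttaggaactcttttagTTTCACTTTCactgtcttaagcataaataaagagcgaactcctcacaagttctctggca
An ISRE-like match was present in 5 of 5 of these genes, against 2.98% of 32851 mouse promoter windows of the same length. Every such match lay on the minus strand, so it reads TTTC, 2 bases, TTTC above. It ended 44 bases before the start in Gbp7, 50 in Gbp2, 128 in Gbp2b and 156 in Gbp5, and in Gbp3 a pair of overlapping matches ended at 36 and 30. A GAS-like match was present in 2 of the 5 genes, Gbp5 and Gbp7, with 2 matches in each, against 7.02% of all windows. That motif is its own reverse complement, and none of its matches overlapped an ISRE-like match. A 2nd RefSeq start of Gbp3 gave a window with neither motif. A match describes letters in a window and is not evidence of binding. The sequences of the chromosome 5 promoters were not used here.

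Several measures touch all values below. Median intensity per array lay between 162.2 and 178.3. The range between the quartiles, however, was narrow in untreated replicate 1 (2.27 on the log2 scale) and IFNa replicate 4 (2.16), against 2.68 to 3.03 in the other arrays. Gbp calls that change without both are given, and for other genes only some of them. The macrophage markers Adgre1, which encodes F4/80, and Icam2 had group means of log2 13.01 to 13.06 and 11.53 to 11.82 and did not pass in any comparison. Gata6, the transcription factor gene of large peritoneal macrophages, fell by 1.05 after IFNa (adjusted p = 0.0122, and 0.0755 without untreated replicate 2) and by 1.16 after IFNg (0.0297), a call that 7 of 9 single-array omissions ended (0.0532 to 0.374). Mertk (0.62 after IFNa) was the other called gene of 13 in that list, and its call ended in 7 of 9 such omissions (up to 0.152). Without both arrays of narrow range the Mertk call ended too (adjusted p = 0.0553). In the lists of 6 other cell types, 0 of 55 genes passed limma's test in any comparison. In the comparisons IFNa against untreated, IFNg against untreated and IFNg against IFNa, 3, 3 and 2 had an unadjusted p under 0.05. Without both arrays of narrow range, 1 neutrophil or eosinophil marker was called lower after IFNa. In that fit 1 marker of small macrophages, monocytes and dendritic cells was called lower after IFNg. Summed intensity of 8 B cell markers was 1275 to 1423 in untreated, 1119 to 2751 in IFNa and 914 to 946 in IFNg arrays. Of neutrophil and eosinophil markers (10 measured) it was 1175 to 1471, 1053 to 1283 and 1046 to 1117 in the same order, and of 8 mast cell markers 1214 to 1618, 1476 to 3145 and 1513 to 1598. Of 11 immediate early and heat shock genes, read as signs of handling, 1 was higher and 1 lower after IFNa, 1 was higher after IFNg, and the list medians were -0.38 and -0.04. The higher gene was Atf3, by 1.61 after IFNa and 1.71 after IFNg (adjusted p = 0.00303 and 0.0118), the latter not without either IFNg array (0.118 and 0.168). Ier2 fell by 0.84 after IFNa (0.0488), a call that 8 of 9 single-array omissions ended (up to 0.164). Without both arrays of narrow range, 4 of the 11 were lower after IFNa and 2 after IFNg, with 1 higher after each and medians of -0.68 and -0.33. The part of these measures in the Gbp differences was not tested. In such bulk samples, fewer cells of a type and less RNA per cell cannot be told apart.

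The family was higher after both interferons. After IFNa, 8 of 10 Gbp probe sets rose, and after IFNg 9 of 10 rose, by between 1.22 and 4.60 on the log2 scale (2.34-fold to 24.2-fold). None was lower in either comparison, where 0.618% and 0.0883% of all probe sets were called lower. Levels are log2 of the deposited intensity, and called means an adjusted p under 0.05 from limma's moderated test, with the Benjamini-Hochberg adjustment over all 24922 probe sets. By that rule 1.77% of all probe sets were called higher after IFNa and 1.23% after IFNg (2.39% and 1.32% in either direction). The median difference of the 10 probe sets was 2.54 after IFNa and 3.07 after IFNg, beside -0.01 and -0.05 over all probe sets. In 10 of 10 every IFNa array lay above every untreated array, as in 3.79% of all probe sets, and in 10 of 10 every IFNg array did, as in 13.2%. Every member kept its direction in both comparisons under quantile normalization and under median centring. Both comparisons share the 3 untreated arrays. Levels of different probe sets are not comparable, since probes differ in how brightly they report, and only differences within a probe set are read here.

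**Figure D1:**
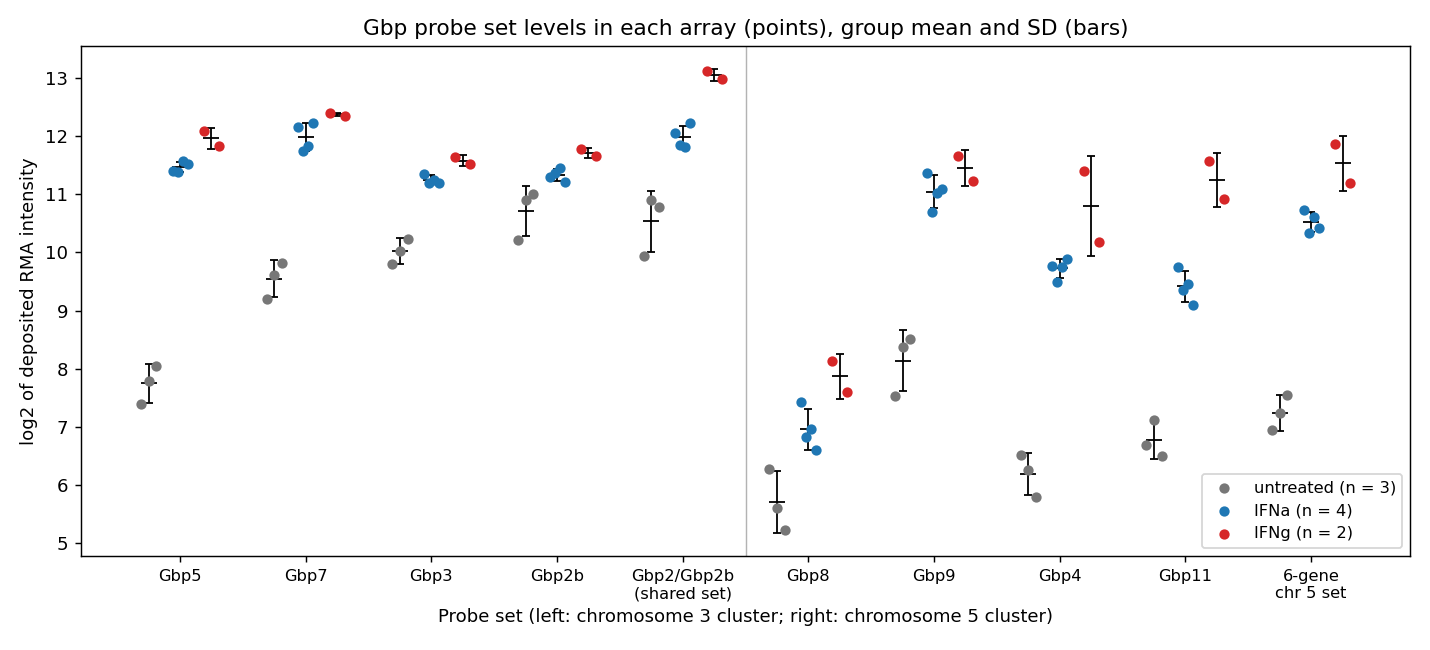
Level of each of the 10 Gbp probe sets (log2 of deposited intensity) in each array, as points, with the group mean and SD as bars, for untreated (grey, n = 3), IFNa (blue, n = 4) and IFNg (red, n = 2). The vertical line separates chromosome 3 from chromosome 5 probe sets. Every treated array lies above every untreated array of the same probe set, and the pair of IFNg points is widest for Gbp4 (11.40 and 10.18).

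Gbp2b, Gbp2 and Gbp5 encode the mouse GBPs that carry a lipid anchor at the carboxyl end and so attach to membranes. Gbp5, which takes part in inflammasome responses, had levels of 7.40, 7.79 and 8.06 in untreated replicates 1 to 3. It had 11.40, 11.39, 11.56 and 11.51 in IFNa replicates 1 to 4 and 12.08 and 11.83 in IFNg replicates 1 and 2. The untreated arrays stood far below all others, and the treated arrays were close together. Group means were 7.75 ± 0.33 (SD, n = 3), 11.46 ± 0.086 (SD, n = 4) and 11.96 ± 0.17 (SD, n = 2). Gbp5 rose by 3.72 ± 0.16 after IFNa (SE; 13.1-fold, adjusted p = 4.81e-06) and by 4.21 ± 0.19 after IFNg (18.5-fold, adjusted p = 1.34e-05). As geometric mean intensity the groups stood at 215, 2823 and 3973. By size of difference Gbp5 ranked 23 of all 24922 probe sets after IFNa and 12 after IFNg. With any single array left out its differences stayed between 3.54 and 3.87 after IFNa and between 4.03 and 4.36 after IFNg.

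Gbp2b, named Gbp1 in older work, had the smallest differences from untreated arrays of the family. Its untreated levels were 10.21, 10.91 and 11.01, its IFNa levels 11.29, 11.36, 11.45 and 11.21, and its IFNg levels 11.77 and 11.65. The 3 groups did not overlap, but untreated replicate 1 stood well below the other untreated arrays. The difference was 0.62 ± 0.19 after IFNa (1.54-fold, adjusted p = 0.166) and 1.00 ± 0.22 after IFNg (2.01-fold, adjusted p = 0.084), and neither passed. Without untreated replicate 1, which lowered the spread, the IFNa difference was 0.37 (adjusted p = 0.173) and the IFNg difference was smaller and passed (0.75, adjusted p = 0.0418), and it passed without untreated replicate 3 too (1.15, adjusted p = 0.0464). Without both arrays of narrow range it passed after IFNg (0.75, adjusted p = 0.0122) and not after IFNa (0.41, adjusted p = 0.056), and after quantile normalization it passed in both (0.47 after IFNa, adjusted p = 0.0352, and 0.80 after IFNg, adjusted p = 0.014).

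The probe set shared by Gbp2 and Gbp2b had larger differences than that of Gbp2b alone. Gbp2 encodes a GBP that gathers on the vacuoles of the parasite Toxoplasma. The shared probe set had untreated levels of 9.94, 10.90 and 10.77, IFNa levels of 12.05, 11.85, 11.81 and 12.22, and IFNg levels of 13.12 and 12.97. All 3 groups were apart, and the IFNg pair stood above every IFNa array. It rose by 1.45 ± 0.22 after IFNa (2.73-fold, adjusted p = 0.00798) and by 2.51 ± 0.27 after IFNg (5.70-fold, adjusted p = 0.00165). Without both arrays of narrow range these were 1.07 (adjusted p = 0.00184) and 2.21 (adjusted p = 1.59e-04). How much of either rise belongs to Gbp2 and how much to Gbp2b cannot be read from a shared probe set, and the difference between the 2 probe sets was not tested.

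Gbp7 and Gbp3, the other measured genes of chromosome 3, encode GBPs of the same cluster without that anchor. Gbp7, which acts on pathogen vacuoles, had untreated levels of 9.20, 9.61 and 9.82, IFNa levels of 12.16, 11.74, 11.82 and 12.21, and IFNg levels of 12.39 and 12.35. The IFNg pair lay just above the highest IFNa arrays. It rose by 2.44 ± 0.18 after IFNa (5.42-fold, adjusted p = 7.95e-05) and by 2.82 ± 0.21 after IFNg (7.07-fold, adjusted p = 2.09e-04). Gbp3 had untreated levels of 9.80, 10.03 and 10.24, IFNa levels of 11.35, 11.19, 11.25 and 11.19, and IFNg levels of 11.64 and 11.51. Its IFNa arrays were the closest together of any IFNa group in the family (SD 0.075). It rose by 1.22 ± 0.12 (2.34-fold, adjusted p = 5.33e-04) after IFNa and by 1.56 ± 0.15 (2.94-fold, adjusted p = 8.05e-04) after IFNg.

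The chromosome 5 probe sets had a larger median difference, 2.90 after IFNa and 4.28 after IFNg, beside 1.45 and 2.51 for the chromosome 3 probe sets. These are medians over 5 probe sets each, and the difference between the clusters was not tested. Gbp4 had the largest difference of the family after IFNg. Its levels were 6.52, 6.27 and 5.80 in untreated arrays, 9.76, 9.50, 9.75 and 9.89 after IFNa, and 11.40 and 10.18 after IFNg. The IFNa arrays agreed closely, while the IFNg pair lay 1.22 apart, the widest of any probe set in the family. Gbp4 rose by 3.53 ± 0.28 after IFNa (11.5-fold, adjusted p = 1.14e-04) and by 4.60 ± 0.33 after IFNg (24.2-fold, adjusted p = 1.73e-04). With IFNg replicate 1 left out its IFNg difference was 3.99, and with IFNg replicate 2 left out it was 5.20. Its call stood in both fits. Geometric mean intensity went from 73.3 in untreated to 845.3 in IFNa and 1772 in IFNg arrays. By size of difference Gbp4 ranked 7 of all probe sets after IFNg and 27 after IFNa.

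Gbp11, the transcribed pseudogene, had untreated levels of 6.69, 7.12 and 6.51, IFNa levels of 9.75, 9.36, 9.45 and 9.10, and IFNg levels of 11.56 and 10.91. The groups formed 3 separate steps, with over 1 log2 unit between the highest IFNa and the lowest IFNg array. It rose by 2.64 ± 0.22 after IFNa (6.25-fold, adjusted p = 1.51e-04) and by 4.46 ± 0.26 after IFNg (22.1-fold, adjusted p = 5.99e-05). By size it ranked 8 of all probe sets after IFNg and 62 after IFNa. Geometric mean intensity was 109.4, 683.9 and 2415 in the order untreated, IFNa, IFNg. The probe set that lists 6 genes of this cluster had untreated levels of 6.94, 7.23 and 7.56, IFNa levels of 10.73, 10.34, 10.60 and 10.41, and IFNg levels of 11.87 and 11.19. Here too the groups were in 3 steps, though it cannot be said which of the 6 genes gave the signal. It rose by 3.28 ± 0.20 (9.69-fold, adjusted p = 2.99e-05) and 4.28 ± 0.24 (19.5-fold, adjusted p = 4.53e-05).

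Gbp9 differed less from untreated than Gbp4 and Gbp11 did after IFNg, a contrast that was not tested. Its levels were 7.54, 8.37 and 8.51 in untreated arrays, 11.37, 10.68, 11.02 and 11.09 after IFNa, and 11.66 and 11.23 after IFNg. It was the single probe set of the family in which an IFNg array lay within the IFNa range. Gbp9 rose by 2.90 ± 0.25 after IFNa (7.49-fold, adjusted p = 1.94e-04) and by 3.31 ± 0.30 after IFNg (9.92-fold, adjusted p = 6.32e-04). Geometric mean intensity was 281.3 in untreated, 2107 in IFNa and 2790 in IFNg arrays. The differences stayed between 2.61 and 3.09 after IFNa and between 3.01 and 3.52 after IFNg over the 9 single-array omissions.

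Gbp8 had the smallest difference of the chromosome 5 probe sets and the least firm calls. Its levels were 6.28, 5.62 and 5.24 in untreated arrays, 7.44, 6.83, 6.97 and 6.60 after IFNa, and 8.14 and 7.60 after IFNg. The groups did not overlap, but the gap between untreated and IFNa arrays (0.32) was smaller than the range within either group (1.05 and 0.83). Geometric mean intensity was 52.4, 124.4 and 233.8, and its lowest untreated value exceeded the 5th percentiles of those arrays (log2 4.59 to 4.80). The untreated mean was below the medians of those arrays (162.2 to 178.3), and whether it lay above background was not tested. The IFNa difference of 1.25 ± 0.28 (2.37-fold, adjusted p = 0.055) did not pass. It passed without untreated replicate 1 (1.53, adjusted p = 0.0216), without IFNa replicate 4 (1.37, adjusted p = 0.0431) and without both (1.65, adjusted p = 0.00852). It passed as well with the dimmest 30% of probe sets removed, with 1 probe set per gene and after quantile normalization (adjusted p = 0.0348, 0.0441 and 0.0432). With the dimmest removed and with 1 probe set per gene, the difference stayed at 1.25 and fewer probe sets were tested (17445 and 19752). The brightness filter took the mean over all arrays, including the treated ones, in which Gbp8 was brighter. These passes are therefore not separate evidence for the IFNa difference. The rise of 2.16 ± 0.33 after IFNg (4.46-fold, adjusted p = 0.0135) did not pass without untreated replicate 2 (0.0707), IFNg replicate 1 (0.218) or IFNg replicate 2 (0.0683), or with the IFNa arrays left out of the fit (0.0737).

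**Figure D2:**
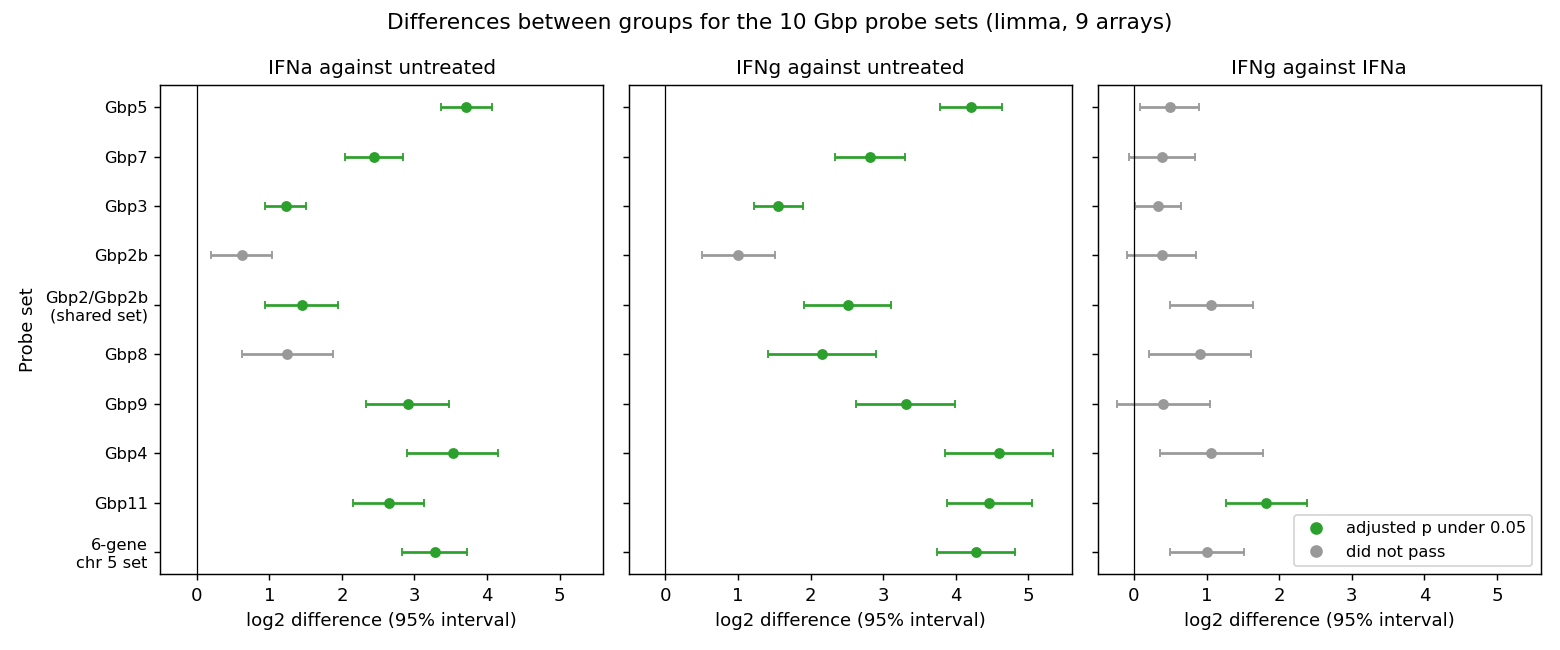
Log2 difference between groups for the 10 Gbp probe sets, with 95% intervals from limma on all 9 arrays; green points passed at an adjusted p under 0.05 and grey points did not. All points lie above 0, the values against untreated run from 0.62 (Gbp2b after IFNa) to 4.60 (Gbp4 after IFNg), and Gbp11 alone passed in the right-hand panel.

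The injections of IFNg and IFNa were also compared directly. In each of the 10 probe sets the group means rose in the order untreated, IFNa, IFNg, an order found in 15.8% of all probe sets. One member passed the direct test, Gbp11, which was higher after IFNg by 1.82 ± 0.25 (95% interval 1.26 to 2.38; 3.53-fold, adjusted p = 0.0114). In this comparison 0.425% of all probe sets were called higher after IFNg, and 0.803% in either direction. The call of Gbp11 rested on IFNg replicate 1, without which the difference was 1.49 (adjusted p = 0.181). For the other 9 the order of IFNa and IFNg levels did not pass. In 9 of 10 probe sets both IFNg arrays lay above every IFNa array, as in 14.7% of all probe sets.

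The direct differences of the other 9 lay between 0.33 and 1.07. Gbp4, the shared Gbp2 and Gbp2b probe set and the 6-gene probe set were higher after IFNg by 1.07 ± 0.31, 1.06 ± 0.25 and 1.01 ± 0.23 (adjusted p = 0.315, 0.148 and 0.123), and Gbp8 by 0.91 ± 0.31 (0.486). Their 95% intervals lay above 0 before adjustment, with lower ends of 0.36, 0.49, 0.49 and 0.20. The Gbp4 value was 0.46 without IFNg replicate 1 and 1.68 without IFNg replicate 2, so either array moved it by over 1.5 times. The 6-gene probe set was at 0.67 without IFNg replicate 1. The shared Gbp2 and Gbp2b probe set passed without untreated replicate 1 (1.06, adjusted p = 0.0148), without both arrays of narrow range (1.14, adjusted p = 0.00286) and with untreated arrays left out of the fit (1.06, adjusted p = 0.0419). For Gbp5, Gbp9, Gbp7, Gbp2b and Gbp3 the differences were 0.49, 0.40, 0.38, 0.38 and 0.33 (adjusted p = 0.544 to 0.795). The Gbp9 value was 0.19 without IFNg replicate 1 and 0.62 without IFNg replicate 2. The interval for Gbp5 was 0.09 to 0.90, for Gbp3 0.01 to 0.65 and for Gbp9 -0.24 to 1.05. Differences of these sizes between the injections were thus neither shown nor set aside. In limma's test 7 of the 10 Gbp probe sets had an unadjusted p under 0.05, as had 1642 of all 24922 probe sets. The median over the family was 0.70, beside -0.04 over all probe sets.

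IFNg replicate 1 was above IFNg replicate 2 in 10 of 10 probe sets, with a median gap of 0.34, while over all probe sets it was above in 51.6%, with a median gap of 0.01. Untreated replicate 1 was the lowest untreated array in 7 of 10 probe sets and in 40.0% of all probe sets, and Gbp4, Gbp8 and Gbp11 were the exceptions. Of the 4 IFNa arrays, replicates 1 to 4 were above the group mean in 8, 1, 7 and 5 of 10 probe sets, against 42.7%, 49.0%, 45.8% and 55.6% of all probe sets.

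**Figure D3:**
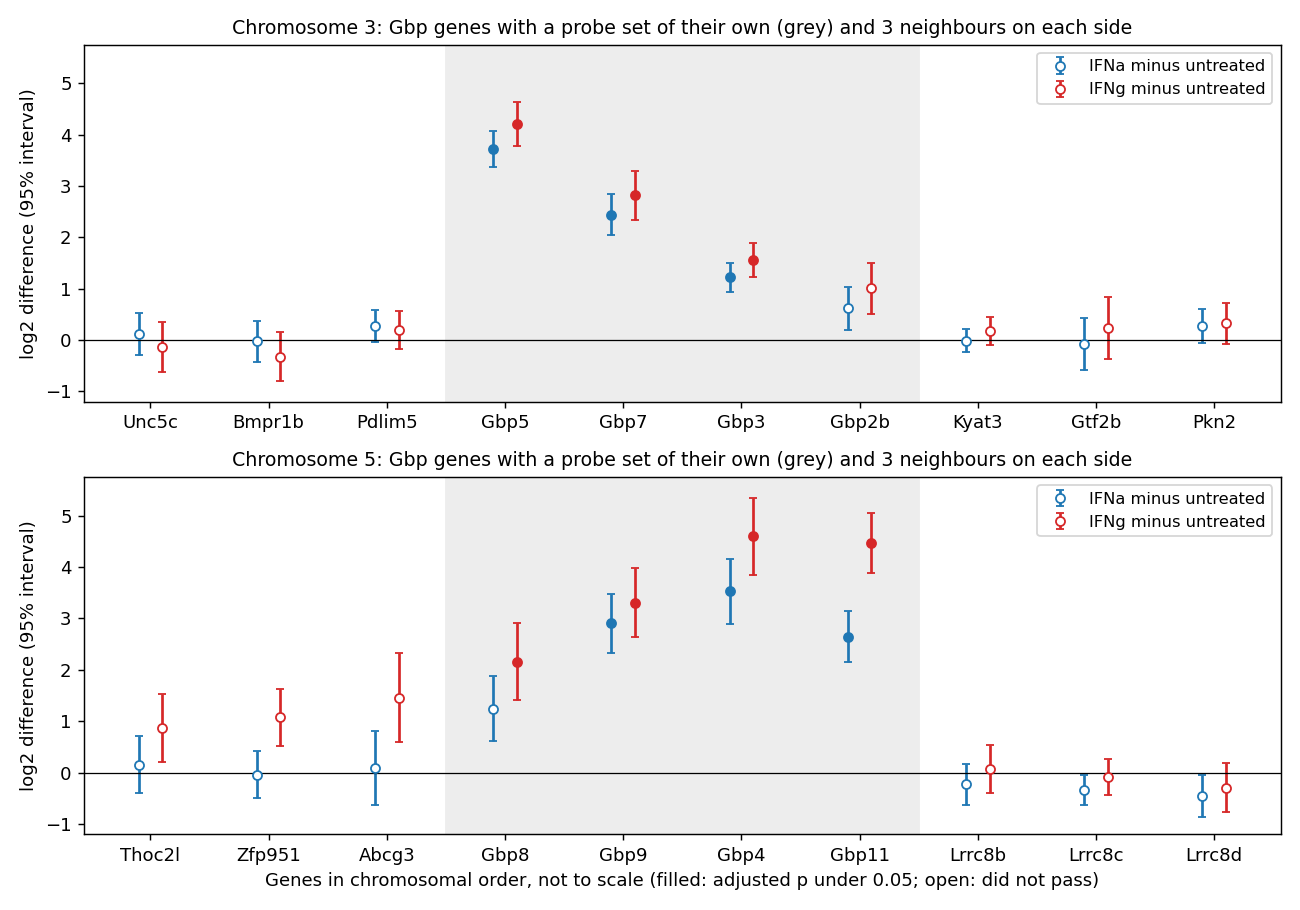
Log2 difference from untreated (IFNa blue, IFNg red, 95% intervals) for Gbp genes with a probe set of their own (grey area) and the 3 nearest measured genes on each side, in chromosomal order and not to scale; filled points passed. The Gbp genes lie above 0 and the neighbours near 0, except the 3 genes beside Gbp8, whose IFNg values are 0.87 to 1.46 and did not pass.

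The genes next to the clusters were examined in the same fit. In chromosomal order the clusters run Gbp5, Gbp7, Gbp3, Gbp2b and Gbp2 on chromosome 3, and Gbp8, Gbp9, Gbp4, Gbp10, Gbp6 and Gbp11 on chromosome 5, by RefSeq. The 3 nearest measured genes on each outer side gave 12 neighbours, of which 0 passed limma's test in any comparison (2, 3 and 3 had an unadjusted p under 0.05 in the order IFNa against untreated, IFNg against untreated, IFNg against IFNa). After IFNa the 12 values lay between -0.45 and 0.28. After IFNg, 9 lay between -0.33 and 0.33, and the 3 genes before Gbp8 lay higher. Abcg3, which encodes a transporter of the ABC family and is next to Gbp8, had untreated levels of 8.03, 8.78 and 8.64, IFNa levels of 8.88, 8.88, 8.90 and 7.63, and IFNg levels of 9.98 and 9.90. Its IFNg arrays stood above all others, and its lowest arrays were the pair of narrow range. The IFNg difference was 1.46 ± 0.39 (adjusted p = 0.186), and it passed without IFNa replicate 4 (1.46, adjusted p = 0.0093) and without both narrow arrays (1.23, adjusted p = 8.12e-04). Zfp951 and Thoc2l, the next 2 genes, gave 1.08 ± 0.25 (adjusted p = 0.0976, and 0.0376 without IFNa replicate 4) and 0.87 ± 0.29 (adjusted p = 0.394). Directly against IFNa, Abcg3 gave 1.37 and Zfp951 1.11 (adjusted p = 0.222 and 0.0904), and both passed without the narrow arrays (1.06, adjusted p = 0.00156, and 0.98, adjusted p = 0.0336).

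Other genes of the interferon and GBP pathways were read from the same fit. Of 9 receptor and transducer genes, 2 rose after IFNa (Stat2, a part of the complex that binds the ISRE, by 3.07, and Jak2 by 1.10) and 1 after IFNg (Stat2, by 2.50). Their medians of 0.02 and 0.12 turned to -0.09 and -0.08 under quantile normalization, and the call of Jak2 stood in 2 of 9 single-array omissions (adjusted p up to 0.115). Of 10 transcription factor genes, 3 rose after IFNa (Irf7 3.18, Irf1 2.39, Batf2 1.57) and 4 after IFNg (Irf1 3.50, Batf2 3.36, Irf8 1.98, Irf7 1.81). IRF1 is needed for much of the interferon response of Gbp genes, and a 2nd, dimmer probe set of Irf1 gave 0.51 after IFNa (adjusted p = 0.23) and 1.36 after IFNg (adjusted p = 0.0112). Irf7 after IFNg passed in 3 of 9 omissions (up to 0.399 without IFNg replicate 1). Irf8 (2.08) and Batf2 (1.79) were higher after IFNg than after IFNa, Batf2 not without IFNg replicate 1 (0.138) or 2 (0.0625). Without both arrays of narrow range Irf1 too was higher after IFNg than after IFNa (1.14, adjusted p = 0.00118), and Irf7 was lower (-1.27, adjusted p = 0.00928). Of 10 negative regulators 3 rose after each interferon. Usp18, which restrains type I receptors, rose by 4.67 after IFNa and 2.40 after IFNg. The JAK inhibitor gene Socs1 rose by 2.00 and 3.58, and the ubiquitin ligase gene Trim21 by 1.96 and 1.79. Ptpn2 and Socs3 did not pass after IFNg (1.02 and 1.76), but a 2nd, dimmer probe set of each did (1.00 and 1.28, adjusted p = 0.0151 and 0.0376). Without both arrays of narrow range 5 of the 10 passed after IFNg. Usp18 after IFNg did not pass without IFNg replicate 1 (0.123) or 2 (0.0789).

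**Figure D4:**
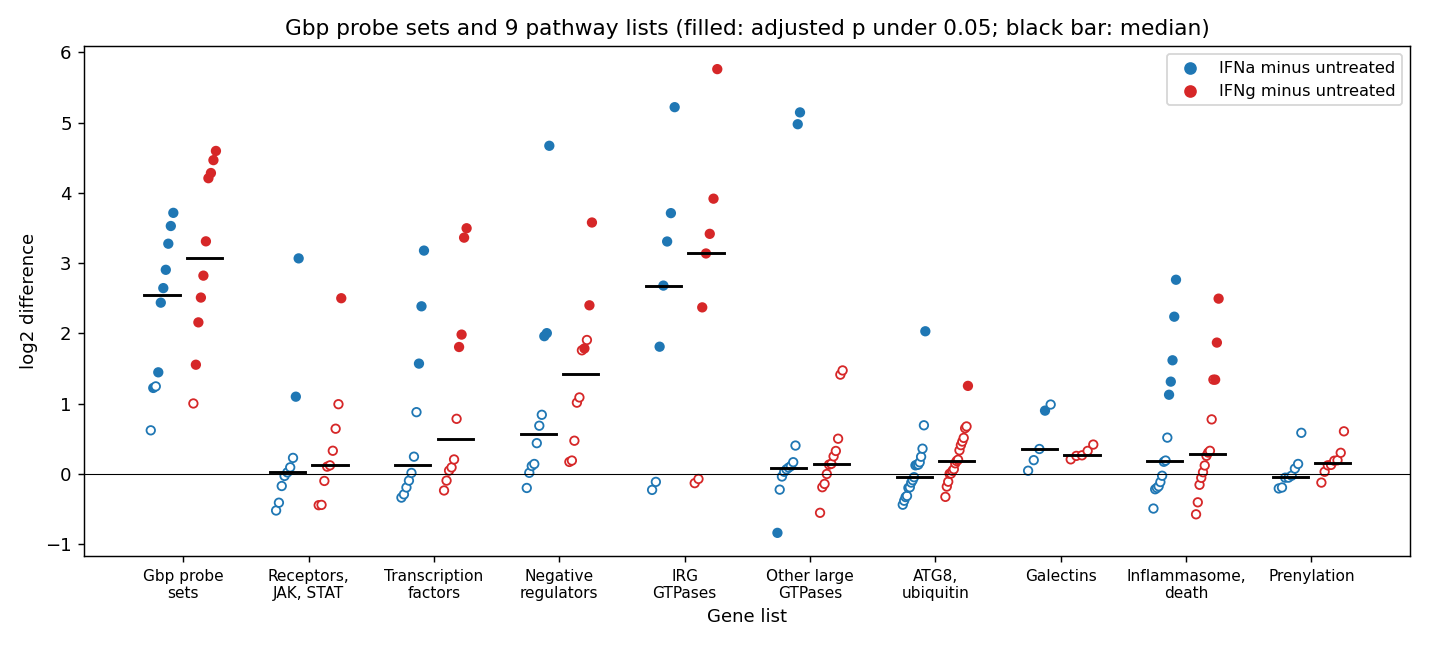
Log2 difference from untreated for the 10 Gbp probe sets and for the measured genes of 9 pathway lists (IFNa blue, IFNg red; filled points passed at an adjusted p under 0.05, open points did not; the black bar is the median). Medians of the Gbp probe sets (2.54 and 3.07) and of the immunity-related GTPases (2.68 and 3.14) stand above those of the other lists, which lie between -0.04 and 1.42.

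Among relatives of the family, 5 of 7 immunity-related GTPases, which act with GBPs on vacuoles, rose after each interferon, with medians of 2.68 and 3.14. Iigp1, an effector that coats vacuoles, rose by 5.22 and 5.76, and Irgm1, a regulator of the effectors, by 3.71 and 3.92. Of 11 other large GTPases, the antiviral genes Mx1 (5.14) and Mx2 (4.98) rose and Dnm1 (-0.84) fell after IFNa, the last not without untreated replicate 2 (0.0988) or IFNa replicate 3 (0.0592). After IFNg 0 of 11 passed limma's test (3 at an unadjusted p under 0.05). Mx1 and Mx2 were there at 1.47 and 1.41 (adjusted p = 0.0649 and 0.0622), and both passed without untreated replicate 3 (0.0165 and 0.00537). Mx1 also passed without untreated replicate 1 (0.0373) and without both arrays of narrow range (0.0225). In the direct comparison Mx1 (-3.67) and Mx2 (-3.56) were lower after IFNg, where 0.377% of all probe sets were called lower. Each of the 10 Gbp probe sets had a difference above 0 there, as had 11042 of all 24922 probe sets, and 1 of the 10 passed. Of 14 inflammasome and cell death genes, 5 rose after IFNa and 3 after IFNg, with Zbp1, a nucleic acid sensor gene, at 2.76 and 2.49. Of those 3, Casp4 (1.87) and Casp1 (1.34) did not pass without either IFNg array (adjusted p = 0.15 to 0.412), nor Casp4 without IFNa replicate 1 or 3 or Casp1 without untreated replicate 1 or 2 or IFNa replicate 1 or 2 (0.051 to 0.132). Of 17 genes for ATG8 conjugation, p62 and ubiquitin ligases, 1 rose after each interferon, Rnf213 (2.03 and 1.25). After IFNg it did not pass without untreated replicate 2 (0.0856). Nor did it pass with either IFNg array left out, where its difference was 1.02 without IFNg replicate 1 and 1.48 without IFNg replicate 2. A 2nd, dimmer probe set of Rnf213 gave 1.97 and 1.36 (adjusted p = 5.63e-05 and 0.00342). Of 5 galectin genes, Lgals8 rose after IFNa (0.90), a call that 8 of 9 single-array omissions ended (0.0548 to 0.139). It passed without untreated replicate 3 (1.09, adjusted p = 0.0115). Of 8 genes for prenylation, 0 passed limma's test in any comparison (1, 0 and 1 at an unadjusted p under 0.05 in the order given for the neighbours).

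Pairs within the family were compared by pattern. The measure was the root mean square difference over the 9 arrays after the untreated mean of each probe set was subtracted, so 0 means an equal pattern. Gbp5 and the 6-gene probe set were the closest pair (0.331), although they belong to different clusters. Gbp4 and the 6-gene probe set (0.422), which share a target, came next, followed by Gbp7 and Gbp9 (0.423) and by Gbp5 and Gbp4 (0.461). Gbp2b and Gbp4 were farthest apart (2.61). Gbp2b and the probe set it shares with Gbp2 lay 0.916 apart, and Gbp2b and Gbp3 0.498. All these patterns share the same 9 arrays and hold no test.

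For each Gbp gene with a probe set of its own, the genes most like it by the same measure were found among 18583 others. Genes with provisional names (Gm, AW, BC or AI with a number, or Rik) were left out of this search, so none of them could be named. For Gbp5 they were Irgm1 (0.225), Cd274 (0.288), the gene of the checkpoint ligand PD-L1, and Slfn5 (0.767). Gbp4 had Cd274 (0.544), Irgm1 (0.643) and Gdap10 (0.953), and Gbp11 had Gdap10 (0.568), Irf1 (0.617) and Cd274 (0.69). For Gbp9 they were Gdap10 (0.338), Irf1 (0.41) and Parp9 (0.425), and for Gbp7 Fkbp5 (0.249), Nampt (0.283) and Zbp1 (0.312). The nearest to Gbp2b was Rab5a (0.105), to Gbp3 Il18bp (0.129) and to Gbp8 Casp12 (0.423). The measure is not scaled by the size of a difference, so small differences, as in Gbp2b and Gbp3, bring close matches by construction. Gbp5, with large differences, still had a match at 0.225, and Gbp8, with smaller ones, had none closer than 0.423.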

How the data were processed

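The 9 single-colour Affymetrix arrays measured biotin-labelled total RNA (TriZol extraction, per the labels). RMA and Affymetrix Power Tools are listed, without versions, in the submitters' processing notes. The deposited values are linear RMA intensity, with 1 value for each probe set and array. Which arrays the authors normalized together is not given in the sources used here. Values were taken as log2, and all 24922 probe sets were fitted with limma 3.58.1 in R 4.3.3 as a mean for each of the 3 groups, with 6 residual degrees of freedom and a prior worth 3.17. Pooling the variance over groups lets the 2 IFNg arrays be tested. Tests were two-sided, and errors after a difference are SE. The number of arrays limits the precision.

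The platform table gave 21425 probe sets 1 symbol, 1399 several and 2098 none. A gene outside the family was read from its brightest probe set among those that carry its symbol alone. Named genes were all Gbp probe sets, up to 4 members of each list and comparison with the smallest p, 3 measured neighbours on each side of each cluster, and the 3 genes most like each member. Cell type and handling genes were named after their values were seen. Promoters are those of RefSeq (GRCm38.p6). Windows were at hand for 5 of the 11 Gbp genes, those of chromosome 3, and the chromosome 5 genes were not searched for motifs. The members and lists were chosen with earlier results of these data known. Alternatives were scaling, variance moderation, filters, replicate blocks, thresholds and omitted arrays. The fit was tested on simulated data.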

Additional observations from a re-analysis of the deposited data

How the results depend on the processing

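No member changed sign under any alternative. Of 624 refits of the 30 member results, 599 kept the side of the threshold, 18 gained a call and 7 lost one, in Gbp2b, Gbp8, Gbp11 and the shared Gbp2 and Gbp2b probe set. Of 1869 refits of list genes and neighbours, 1676 kept it. The numbers of members called after either interferon stayed within 1.5 times: 8 to 10 of 10, and 7 of 8 after each with 1 probe set per gene, which tests fewer members. In the direct comparison 1 member passed, 2 with only the 2 groups compared or without both arrays of narrow range, 0 at an adjusted p under 0.01, and 0 to 2 with single arrays left out. Of all probe sets, 596 were called after IFNa: 1004 after quantile normalization (552 higher and 452 lower, against 442 and 154), 1139 without the narrow arrays, 350 at an adjusted p under 0.01, 375 with at least 2-fold, and 354 to 706 with single arrays left out. After IFNg 328 were called, 151 in the 2 groups alone, 528 without the narrow arrays, 145 at the stricter threshold, and 97 (without IFNg replicate 1) to 484. Quantile normalization gave 284 higher and 66 lower, against 306 and 22. In the direct comparison 200 were called, 513 without the narrow arrays, 79 at the stricter threshold and 40 (without IFNg replicate 1) to 251, and the split of 106 and 94 became 116 and 155 after quantile normalization. The causes were not tested.

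The replicate block by title number gave 944, 799 and 188 called probe sets in the order IFNa against untreated, IFNg against untreated and IFNg against IFNa, and 9, 10 and 1 members. The block by description number gave 928, 293 and 112, and 10, 9 and 1 members. Under these blocks Gbp8 passed after IFNa (adjusted p = 0.00305 by title and 0.0465 by description), and Gbp2b passed after IFNg by title (0.0414) and after IFNa by description (0.0477). Correlations of deviations from the group mean between same-numbered arrays were -0.18 to 0.54 over 7 pairs by title, with 2 above 0.1. By description they were -0.42 to 0.21 over 6 pairs, with 2 above 0.1. Differently numbered arrays gave -0.55 to 0.57 by either number, with 8 of 19 and 8 of 20 above 0.1. Deviations of the 2 IFNg arrays mirror each other, so pairs with them cannot show pairing. Pairing was not settled in this way, and the numbers were not taken as pairs.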
